A study of Daphnia magna with 335 samples.

Results

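The 259 probes described here are reference transcripts of Daphnia magna: probes whose counts stood close to those of solvent pools at chosen concentrations of 3 chemicals and varied little between the solvent pools of the series. They came from 253 of 1988 gene identifiers and made up 259 of the 2378 probes measured. They were selected on measured values, as follows. Counts were divided by the library total to give CPM, the count scaled to a common total. Treated and solvent means were compared as log2 ratios after adding 2 CPM to each. A probe was kept when its mean over 36 solvent pools lay between 10 and 3000 CPM and its log2 ratio stayed within 0.4 of 0 in 3 comparisons. These were 2-tert-butyl-4-methoxyphenol at 66.67 µM, fipronil amide at 56.43 µM, and cis-nonachlordane as the mean over 21.1, 6.677 and 2.113 µM. Its solvent means also had to span less than 0.6 on the log2 scale over the 6 exposures.

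Daphnia magna, the water flea, is a freshwater crustacean used in water testing. Whole animals were held for 24 h in filtered lake water with 1 of 12 contaminants of Great Lakes tributaries at 8 concentrations, coded D1 (highest) to D8 (lowest), and dimethyl sulfoxide (DMSO), the solvent of the chemicals, was matched in every well. A library held a pool of 5 animals, from which dead animals were left out, and there were 3 pools per concentration. The exception is 3,4-dichlorophenyl isocyanate at 66.67 µM, for which 2 pools were analysed here.

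Each of 6 exposures tested 2 chemicals beside its own 6 DMSO pools, 3 named CON and 3 named XtraC in the labels. Metolachlor OA shared an exposure with 3,4-dichlorophenyl isocyanate, 1(2H)-phthalazinone with gabapentin, Metribuzin-DA with 2-tert-butyl-4-methoxyphenol, hydrochlorothiazide with 4-chlorophenyl methyl sulfoxide, cetirizine with fipronil amide, and fexofenadine with cis-nonachlordane. The other 12 libraries are named control QA, with DMSO as their treatment in the labels. The labels state neither strain nor age of the animals, nor where the control QA material came from.

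A reference transcript is one whose level is steady enough to serve as a ruler for others, and for quantitative PCR such genes are usually taken from structural or core metabolic functions. Whether a transcript is steady is a property of the tissue and the treatments tried, so candidates are checked in conditions other than those that chose them. TempO-Seq, the assay here, reads short detector oligonucleotides that are joined on their target RNA and sequenced, so a probe reports 1 short target rather than a whole transcript. No gene names accompany the identifiers in the files, and 0 of the 1988 identifiers were found in the RefSeq gene table. The probes are therefore given by identifier, without a function, and neither commonly used reference genes nor marker genes of tissues could be looked up. Since whole animals were pooled, fewer cells of a type and less RNA per cell cannot be told apart in any level below.

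The solvent pools and 3 comparisons that chose the probes are a description and carry no test. Of 2378 probes, 969 lay under 10 CPM and 56 over 3000 CPM, which left 1353. Among these, 479 kept within the limit in 2-tert-butyl-4-methoxyphenol, 922 in fipronil amide and 1102 in cis-nonachlordane, and 586 had a solvent range under the limit. The limit on 2-tert-butyl-4-methoxyphenol was the tightest of the 4: without it the list would have held 482 probes, against 297 without the limit on fipronil amide, 267 without that on cis-nonachlordane and 345 without that on the solvent range. At that concentration 51.7% of all probes tested were called, against 16 of 259 reference probes, which lay 0.27 to 0.55 lower on the log2 scale. For fipronil amide at 56.43 µM the share of all probes was 15.8% beside 1 of 256 reference probes. For cis-nonachlordane the shares were 7.3%, 4% and 7.44% at 21.1, 6.677 and 2.113 µM, beside 1, 0 and 5 of 259. These 5 counts follow from the choice of the probes and show nothing further.

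Within their limits the side on which the reference probes lay turned with the scaling. On the CPM of the choice, which divide by library totals, the log2 ratio at 66.67 µM of 2-tert-butyl-4-methoxyphenol had a median of 0.09, and 162 of the 259 lay above 0. With CPM scaled by TMM factors, which correct library totals for a few dominant probes, the median was -0.075 and 92 lay above 0. In fipronil amide the median was -0.15 by library totals, with 210 below 0, and 0.019 by TMM, with 112 below 0. The other probes of the window had medians of -0.16 and 0.007 there. In cis-nonachlordane the median was 0.02 with 146 above 0 by library totals, and -0.019 with 113 above 0 by TMM. The solvent range lay between 0.10 and 0.60, median 0.38. The lowest of the 6 solvent means fell in the exposure of Metolachlor OA and 3,4-dichlorophenyl isocyanate for 112 probes by library totals and for 68 by TMM.

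Probes on either side of a limit were nearly alike. The 2 members closest to the limit in 2-tert-butyl-4-methoxyphenol had log2 ratios of -0.3999 and -0.3996, and the 2 probes just outside it 0.401 and 0.403. For the solvent range the values were 0.599 and 0.598 inside and 0.601 and 0.606 outside. The 2 members nearest the limit in fipronil amide stood at -0.389 and -0.386, against -0.401 and -0.402 outside. In cis-nonachlordane 0.385 and 0.383 stood inside, and 0.439 and 0.451 outside. The lowest levels inside were 10.1 and 10.7 CPM, with 9.66 and 8.50 CPM outside. The highest inside were 2901 and 2629 CPM, with 3033 and 3220 CPM outside.

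The median level of the reference probes was 180 CPM, against 115 CPM for the other 1094 probes of the same window. Both medians, and the values around the limits above, are on the CPM of the choice; from here on CPM are scaled by TMM factors. The 8 most abundant members had solvent means between 2148 and 2889 CPM. Dapma7bEVm010295_98002, the highest, ran over the 36 solvent pools from 2313 through a median of 2874 to 3536 CPM. Dapma7bEVm014958_97329 ran from 2148 through 2592 to 3162 CPM. Every solvent pool of both probes thus lay between 2148 and 3536 CPM.

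Library totals lay between 118094 and 1171681 counts, median 619413, and the reference probes held a median of 10.7% of a library. One library stood apart: in replicate C of 3,4-dichlorophenyl isocyanate at 21.1 µM a single probe, Dapma7bEVm027952_95783, held 74.8% of the counts. There the reference probes held 0.882%, and 96 of the 259 were at 0 counts. In the other 334 libraries their share ran from 6.78% to 12.8% and no more than 3 members were at 0. The share varied most among the solvent pools of the exposure of Metolachlor OA and 3,4-dichlorophenyl isocyanate, where it ran from 7.94% to 12.1%. In the other 5 exposures the solvent pools lay between 9.91% and 11.5%, and the 12 control QA libraries between 10.96% and 11.6%.

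**Figure D1:**
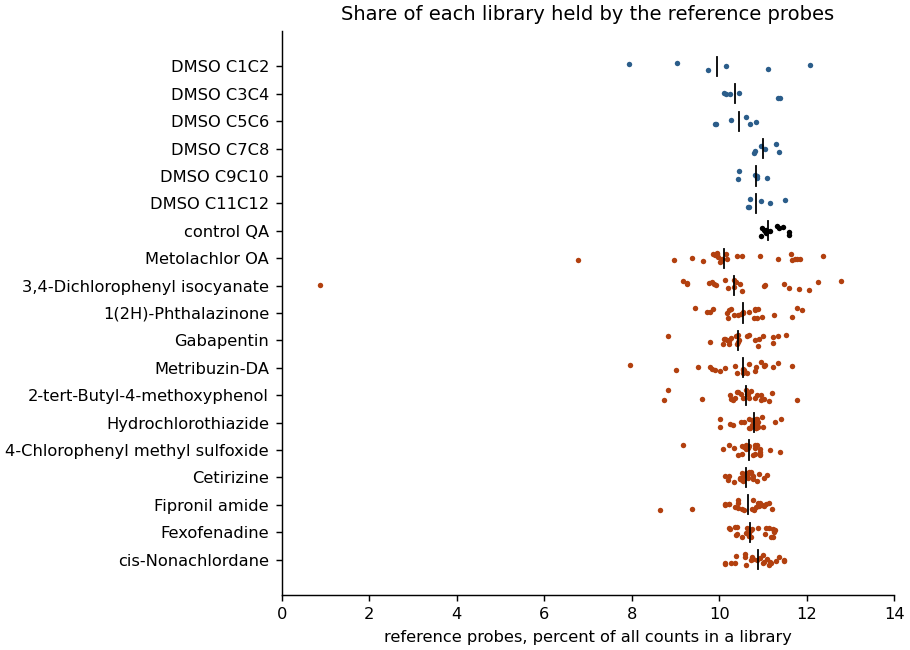
Percent of all counts in a library held by the 259 reference probes (horizontal axis), for the 6 solvent pools of each exposure (blue), the 12 control QA libraries (black) and the treated libraries of each chemical (red); each point is a library and vertical bars are medians. All but 1 library lie between 6.78% and 12.8%; replicate C of 3,4-dichlorophenyl isocyanate at 21.1 µM lies at 0.882%.

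The reference probes varied less than other probes of the same level window in treated libraries that did not choose them. The standard deviation (SD) of log2 CPM was taken over the 143 treated libraries of Metolachlor OA, 3,4-dichlorophenyl isocyanate, 1(2H)-phthalazinone, gabapentin, hydrochlorothiazide and 4-chlorophenyl methyl sulfoxide. Its median was 0.31 over the 259 members and 0.52 over the 1094 other probes. Without the library held by a single probe the medians were 0.24 and 0.42. Of the 338 probes with the lowest SD among the 1353, 138 were members, which is 53.3% of the list, and among as many probes with the highest SD 3 were members. The solvent pools of these exposures did take part in the choice, so a probe that varies between exposures was less likely to be in the list.

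The difference was present at each level, and at low levels much of the spread was of the size that counting gives. Between 1000 and 3000 CPM the median SD without that library was 0.21 for 28 members and 0.34 for 85 other probes, and counting error alone would give 0.044 for these members. Between 100 and 300 CPM it was 0.23 for 81 members and 0.35 for 289 others, with 0.15 from counting. Between 10 and 30 CPM it was 0.45 for 26 members and 0.55 for 212 others, with 0.36 from counting. Within the 6 solvent pools of an exposure the median SD of the members was 0.19, and over the 12 control QA libraries it was 0.17. The counting figures cover counting error only, since the reads carry no molecular identifiers.

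**Figure D2:**
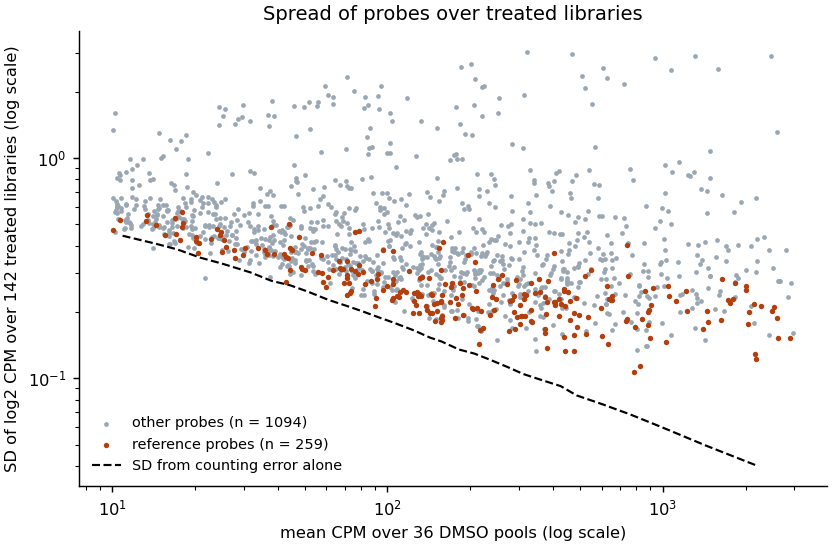
SD of log2 CPM over the treated libraries of 6 chemicals, without the library held by a single probe, (vertical axis, log scale) against the mean CPM over 36 solvent pools (horizontal axis, log scale) for the 259 reference probes (red) and 1094 other probes (grey); the dashed line is the SD that counting error alone gives. The red points lie low among probes of the same level, with a median of 0.24 against 0.42, and approach the dashed line below 100 CPM.

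Dapma7bEVm000177_96200 had the lowest SD over the 143 libraries; without the library held by a single probe Dapma7bEVm027400_97138 came first, at 0.107, and it second, at 0.114. Over the 36 solvent pools it ran from 670.4 through a median of 835 to 913 CPM. Over the 143 treated libraries it ran from 677 through 802 to 1105 CPM, so the medians were close and the treated libraries reached above every solvent pool. Its SD was 0.11. Dapma7bEVm009908_97240 had the next lowest SD, 0.13, with treated libraries from 1657 through 2154 to 3008 CPM and solvent pools from 1914 through 2165 to 3087 CPM. It was also among the 8 most abundant. Dapma7bEVm027400_97138, Dapma7bEVm005646_96803, Dapma7bEVm023023_97411 and Dapma7bEVm009578_96801 followed, with SDs of 0.13, 0.14, 0.15 and 0.15.

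Each of the 6 members with the highest SD, from 0.60 to 0.68, was at 0 counts in the library held by a single probe. Dapma7bEVm009553_96489 ran over the solvent pools from 484 through 628 to 851 CPM, and its SD fell from 0.68 to 0.23 when that library was left out. For Dapma7bEVm002279_96972 the SD was 0.68 with it and 0.37 without it, and for Dapma7bEVm000559_97059 it was 0.62 and 0.22. Dapma7bEVm010809_96507, with a solvent median of 17.6 CPM, kept 0.57 of 0.60.

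Whether the list stays quiet in other chemicals was asked first in the 3 exposures of which no treated library had chosen it. Each of 6 chemicals was tested at each of 8 concentrations against the 6 solvent pools of its exposure, with edgeR's quasi-likelihood test and Benjamini-Hochberg adjustment over all probes tested, and a probe with an adjusted p under 0.05 was called. For a given chemical 257 to 259 members had enough counts to be tested. Of 12400 tests of members 7 gave a call, beside a background of 0.256% over all 68816 tests. The members' share was 0.0565%. Under an unadjusted p of 0.05 were 637 of the 12400 member tests and 4022 of all 68816. A log2 fold change past 0.4 in either direction was reached in 4.48% of the members' tests, and 14.9% of all tests passed that size. For 120 of the 259 members, 46.3%, every one of the 48 values stayed within 0.4, against 211 of the 1094 other probes, 19.3%.

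3,4-Dichlorophenyl isocyanate had the tests with the most calls among these 6 chemicals, and few of them fell on members. At 66.67, 21.1 and 6.677 µM the background was 2.48%, 3.71% and 3.51% of all probes, and 1 of 259 members was called at each. In the test of all 8 concentrations together, 5.02% of all probes and 1 member passed. In the test of a linear trend over the concentration code, which uses no solvent pool, 5.53% of all probes passed and 2 of 254 members did. Without the library held by a single probe, the 3 counts of members were 4, 0 and 3, beside 4.41%, 2.13% and 5.23% of all probes. The trend test then called 6 members, 2.34%, beside 6.66%. For 1(2H)-phthalazinone, gabapentin, hydrochlorothiazide and 4-chlorophenyl methyl sulfoxide the edgeR test called 0 members in 8256 tests, with 464, 5.62%, under an unadjusted p of 0.05. DESeq2 called 3 members there, and its share over all probes is not given here.

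Dapma7bEVm003596_96816 was called higher at 66.67 and 6.677 µM of 3,4-dichlorophenyl isocyanate, and was not called at 21.1 µM between them. The 6 solvent pools ran from 110.4 through a median of 119 to 158 CPM. The 2 pools at 66.67 µM read 278 and 215 CPM, and the 3 at 6.677 µM read 240, 174 and 199 CPM, all above the highest solvent pool. The log2 fold changes were 0.98 ± 0.21 (standard error, SE) and 0.71 ± 0.19, with adjusted p of 0.0105 and 0.0281 by edgeR with Benjamini-Hochberg adjustment. It also passed the trend test, at 0.11 ± 0.026 per step toward higher concentration, adjusted p = 0.0107 by edgeR. Without letter B or without letter C both calls against the solvent pools were lost. They were also lost with library totals, with CON pools alone and with XtraC pools alone. Its trend call was lost with library totals and without letter B. The other member in the trend test, Dapma7bEVm002712_96698, fell by 0.074 ± 0.019 per step, adjusted p = 0.0186 by edgeR.

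At the lowest concentration of Metolachlor OA, 0.021 µM, 3 of 259 members were called beside 1.55% of all probes. Dapma7bEVm006210_97379 read 1016, 953 and 843 CPM in the treated pools, while the 6 solvent pools ran from 619 through 652 to 664 CPM. The groups did not overlap, and the log2 fold change was 0.53 ± 0.11 (SE), adjusted p = 0.0103 by edgeR. Dapma7bEVm010809_96507, a member of low level, read 2.39, 4.14 and 5.24 CPM against 8.001 through 13.3 to 23.5 CPM in the solvent pools, with a log2 fold change of -1.89 ± 0.48 and adjusted p = 0.0467 by edgeR. Leaving out any of the replicate letters A, B or C ended all 3 calls, with 0 members called each time. With the replicate letter as a block in the fit 30 members were called, 11.6%, beside 8.67% of all probes.

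The second comparison was at the concentrations of the 3 choosing chemicals that the choice did not use, 19 tests that share their solvent pools with it. Members gave 23 calls in 4900 tests, beside a background of 0.932%. Past 0.4 on the log2 scale were 5.12% of the members' values, and 17.4% of all values. At 21.1 µM of 2-tert-butyl-4-methoxyphenol, the concentration next to the one that chose the list, 1.7% of all probes and 0 of 259 members were called by edgeR. Under an unadjusted p of 0.05 were 9 members, beside 100 of all 1471 probes. DESeq2 called 0 members there, beside 2.18% of all probes. At 66.67 µM of cis-nonachlordane the background was 3.16% beside 1 member, and at 0.669 µM it was 4.21% beside 3.

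Dapma7bEVm000418_97860 fell at both of these concentrations of cis-nonachlordane. The 6 solvent pools of that exposure ran from 804 through 852 to 925 CPM. The pools at 66.67 µM read 690.4, 704 and 735 CPM, with log2 fold change -0.27 ± 0.076 (SE) and adjusted p = 0.0455 by edgeR. Those at 0.669 µM read 745, 688 and 721 CPM, a change of -0.26 ± 0.076, adjusted p = 0.046 by edgeR. Neither group overlapped the solvent pools, which both tests share. At 21.1 and 2.113 µM, which took part in the choice, the changes were -0.33 and -0.345, and edgeR called both. The limit of the list was applied to the mean over 3 concentrations by library totals, where the log2 ratio was -0.26. At 0.212, 0.067 and 0.021 µM the changes were -0.074, 0.037 and 0.030, with no call. Both calls were lost without any of the letters A, B and C, and with CON pools alone or XtraC pools alone. With no filter or with library totals the call at 66.67 µM was also lost.

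More members were called at 2 low concentrations of 2-tert-butyl-4-methoxyphenol. At 0.212 µM 9 of 259 members were called beside 2.24% of all probes, and at 0.067 µM 8 were called beside 4.76%. The members' shares were 3.47% and 3.09%. Of the 9 at 0.212 µM, 7 rose and 2 fell, and in each of the 9 the treated and solvent pools did not overlap, which held for 90.9% of all 33 probes called. With CON pools alone, with XtraC pools alone, without letter B and without letter C both counts were 0. Without letter A they were 21, 8.11% of members beside 7.31% of all probes, and 32, 12.4% beside 14.8%. At 0.067 µM 5 members rose and 3 fell, but with the members' sum as library size 1 rose and 5 fell, and with library totals 0 rose and 4 fell. At 0.212 µM these scalings gave 6 that rose with 3 that fell, and 4 with 0.

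Of the 91 tests outside the choice, that of Metribuzin-DA, a metabolite of metribuzin (a herbicide), at 2.113 µM called the most members. There 30 of 259 members were called, 11.6%, and the background was 11.1% of 1487 probes. Of the 30, 22 rose, 8.49% of the members beside 6.19% of all probes, and 8 fell, 3.09% beside 4.91%. In 27 of the 30 the 3 treated and 6 solvent pools did not overlap, which held for 89.1% of all 165 probes called there. The log2 fold changes of the 30 ran from -0.71 to 1.18, with a median size of 1.59-fold, and 20.5% of all members tested there lay past 0.4 on the log2 scale. The members' median absolute log2 fold change at this concentration was 0.20, against 0.32 for other probes of the window.

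**Figure D3:**
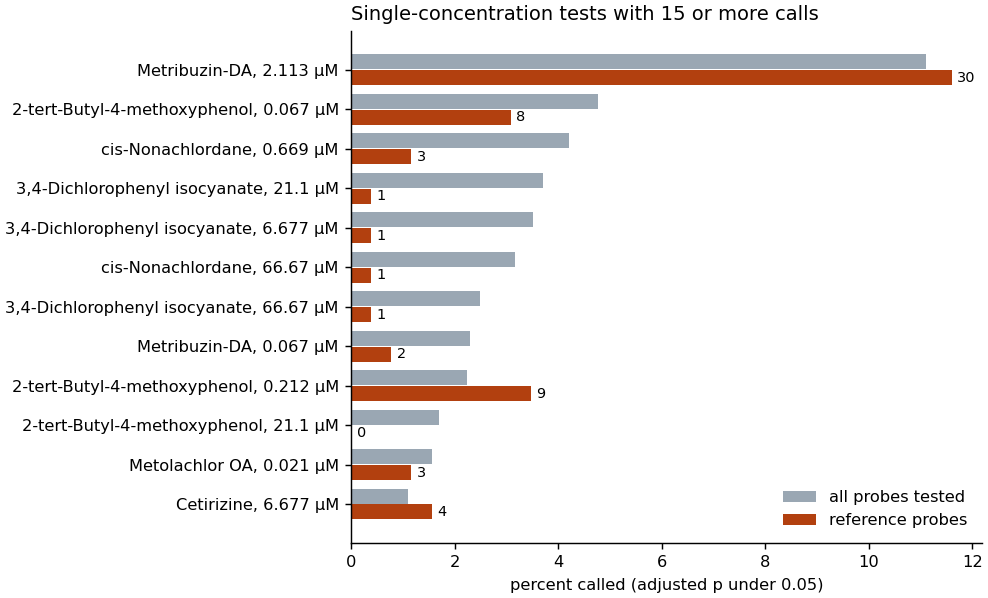
Percent of all probes tested (grey) and of the reference probes (red) called by edgeR at an adjusted p under 0.05, in the 12 single-concentration tests outside the choice of the list in which 15 or more probes were called; the figures beside the bars are numbers of reference probes. The members' share lies below the background in 3,4-dichlorophenyl isocyanate and cis-nonachlordane and near it at 2.113 µM of Metribuzin-DA, 11.6% against 11.1%.

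Dapma7bEVm001283_96882 was called in 2 of the 91 single-concentration tests; 3 members were called in more. The 6 solvent pools of the Metribuzin-DA exposure ran from 141 through 189 to 203 CPM. At 2.113 µM of Metribuzin-DA the pools read 365, 485 and 242 CPM, and at 0.212 µM of 2-tert-butyl-4-methoxyphenol 323, 443 and 378 CPM. Every one of these 6 pools lay above the highest solvent pool. The log2 fold changes were 0.98 ± 0.19 (SE), adjusted p = 0.00498, and 1.08 ± 0.21, adjusted p = 0.0075, both by edgeR against the same 6 solvent pools.

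The pools at neighbouring concentrations read lower. At 0.669 and 6.677 µM of Metribuzin-DA, on both sides of 2.113 µM, Dapma7bEVm001283_96882 read 238, 173 and 164 CPM and 190, 164 and 168 CPM. At 66.67 µM it read 199, 181 and 160.1 CPM, inside the solvent range. At 66.67 µM of 2-tert-butyl-4-methoxyphenol, which took part in the choice, it read 134, 123 and 119 CPM, below every solvent pool. Dapma7bEVm008302_96056 read 831, 690 and 761 CPM at 2.113 µM, with solvent pools from 356 through 369.8 to 471 CPM, with log2 fold change 0.95 ± 0.19 (SE) and adjusted p = 0.00498 by edgeR. At 0.669 µM 2 of its 3 pools, 725 and 676 CPM, lay above the solvent pools and the third, 362 CPM, among them.

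**Figure D4:**
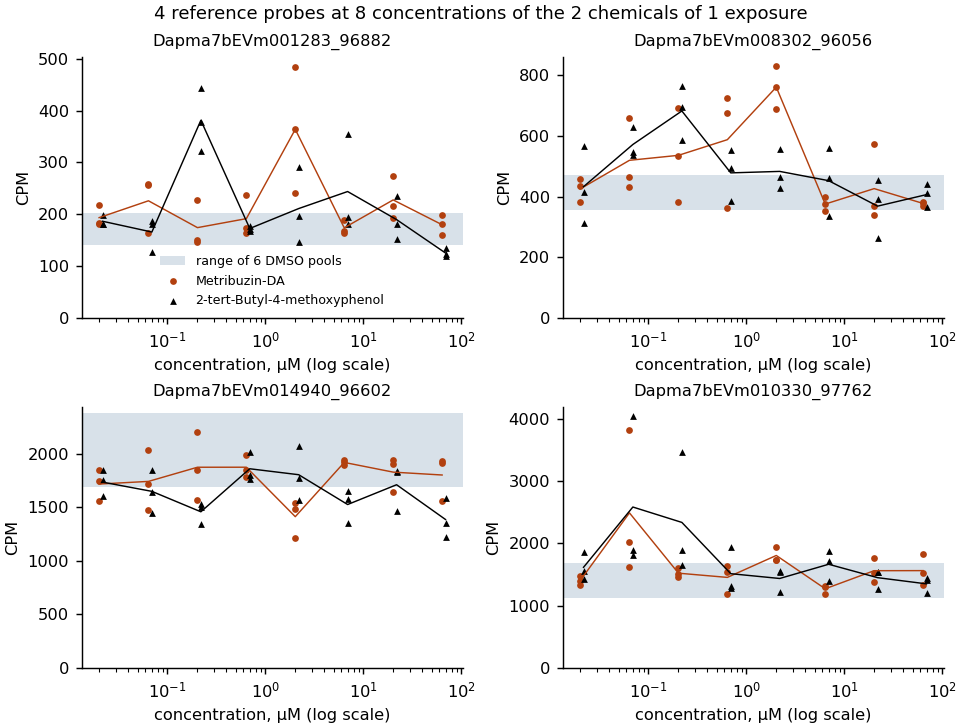
CPM (vertical axis, from 0) of 4 reference probes in each of 3 pools at 8 concentrations in µM (horizontal axis, log scale) of Metribuzin-DA (red circles) and 2-tert-butyl-4-methoxyphenol (black triangles); lines join means and the band is the range of the 6 solvent pools both chemicals share. Dapma7bEVm001283_96882 lies above the band in all 3 pools at 2.113 µM of the former and 0.212 µM of the latter, and below it in all 3 at 66.67 µM of the latter, which took part in the choice.

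Dapma7bEVm014940_96602 fell at the same 2 places, and not only there. Its solvent pools ran from 1694 through 1930.1 to 2385 CPM. At 2.113 µM of Metribuzin-DA it read 1544, 1485 and 1214 CPM, below all of them, with log2 fold change -0.52 ± 0.11 (SE) and adjusted p = 0.00842 by edgeR. At 0.212 µM of 2-tert-butyl-4-methoxyphenol it read 1533, 1501 and 1346 CPM, a change of -0.44 ± 0.11, adjusted p = 0.0351 by edgeR. At 66.67 µM of that chemical, which took part in the choice, it read 1220, 1351 and 1591 CPM, also below every solvent pool. At 6.677 µM it read 1352, 1651 and 1580 CPM, below them as well, with no call. It was also the 1 member called in fipronil amide outside the choosing concentration, at 0.0179 µM, where 1712, 1804 and 1484 CPM stood below solvent pools from 2000 through 2117 to 2288 CPM, a change of -0.35 ± 0.073, adjusted p = 0.0286 by edgeR.

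The count at 2.113 µM of Metribuzin-DA depended on the libraries and the scaling. It was 8 without replicate letter A, 2 without B and 6 without C, each of which also removes 2 solvent pools. These were 3.09%, 0.775% and 2.33% of members, beside 2.84%, 0.954% and 1.23% of all probes. With the CON pools alone as the control it was 3, beside 1.55% of all probes, and with the XtraC pools alone 0, beside 0.202%. In the 3 treated pools the summed counts of the members lay 0.13, 0.12 and 0.056 on the log2 scale above the TMM scaling, relative to the mean of the solvent pools. With the summed counts of the members as library size, 14 rose and 10 fell, and with library totals alone 17 rose and 3 fell. The summed counts are those of the members themselves, so a more even split follows in part from that scaling.

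Over all 24 tests of the chemicals that shared an exposure with a choosing chemical, Metribuzin-DA, cetirizine and fexofenadine, members gave 36 calls in 6192 tests beside a background of 0.64%. The share of members was 0.581%, and without the single concentration of 2.113 µM it was 0.101% beside 0.163%. Past 0.4 on the log2 scale were 5.44% of the members' values and 16% of all values. At 0.067 µM of Metribuzin-DA the background was 2.29% beside 2 members, and without letter A 28 of 259 members, 10.8%, were called beside 12.7% of all probes. At 6.677 µM of cetirizine it was 1.09% beside 4 of 257 members. In 3 of these 4 the treated and solvent pools overlapped, and replicate B was the highest pool in each. With the replicate letter as a block in the fit 10.1% of members were called there, beside 7.03% of all probes. Fexofenadine gave 0 member calls in 2064 tests by edgeR, with 78, 3.78%, under an unadjusted p of 0.05, and 0 by DESeq2.

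The size of change was smaller in the members than in other probes of the window in every one of the 91 single-concentration tests outside the choice. In the 48 tests of the first comparison the members' median absolute log2 fold change ran from 0.073 to 0.20, and that of the other probes from 0.11 to 0.30. In the 19 tests at other concentrations of the choosing chemicals it ran from 0.079 to 0.21, against 0.12 to 0.33. In the 24 tests of their partners it ran from 0.075 to 0.20, against 0.11 to 0.32. The members and the other probes were not matched for level, with medians of 180 and 115 CPM on the CPM of the choice. The tests at other concentrations and of the partners share their solvent pools with the choosing comparisons.

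**Figure D5:**
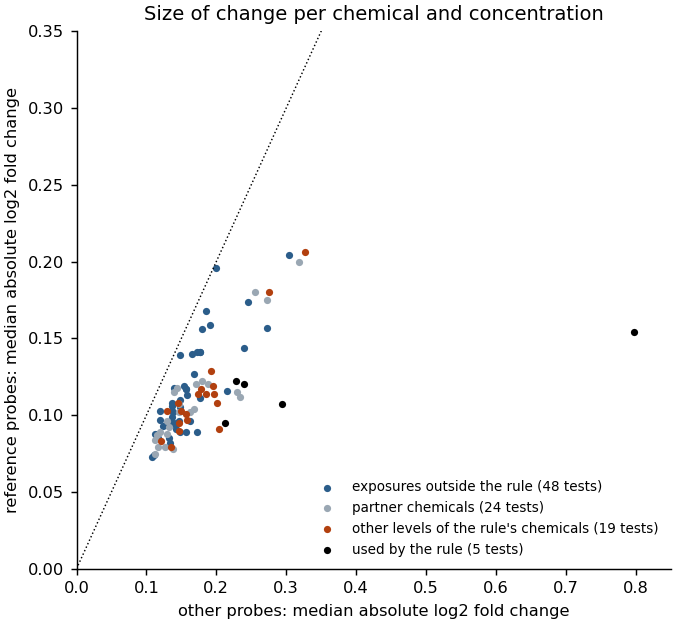
Median absolute log2 fold change of the reference probes (vertical axis) against that of the other probes of the 10 to 3000 CPM window (horizontal axis); each point is a test of 1 concentration against the solvent pools of its exposure, and the dotted line marks equal medians. All 91 tests outside the choice lie below the line, between 0.073 and 0.21 for the reference probes, and the 5 tests used by the choice are shown in black.

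Over these 91 tests 210 of the 259 members, 81.1%, were never called. Of the other 49, 35 were called once, 11 in 2 tests and 3 in 3 or more. Among the other probes of the window 320 of 1094, 29.3%, were called at least once, against 18.9% of the members. All 91 values stayed within 0.4 on the log2 scale for 76 members, 29.3%, and for 77 of the other probes, 7.04%.

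Tests that join the concentrations of a chemical gave the same order. In the test of all 8 concentrations together, over the 9 chemicals outside the choice, 9 of 2324 member tests passed beside a background of 1.22%. Of these 8 belonged to Metribuzin-DA, where the background was 4.64%, and 1 to 3,4-dichlorophenyl isocyanate. For the other 7 chemicals edgeR called 0 of 1806, with 109, 6.04%, under an unadjusted p of 0.05. DESeq2 called 11 of these member tests, and its share over all probes is not given here. In the trend test 2 of 2286 member tests passed beside 0.647%. In Metribuzin-DA edgeR called no trend for any of the 258 members tested or for any other probe. Over the chemicals outside the choice other than 3,4-dichlorophenyl isocyanate, edgeR called 0 of 2032 member trends and DESeq2 called 2. The share over all probes by DESeq2 is not given here.

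Control QA differed from the solvent pools in many probes, members and others alike. Against the 36 solvent pools 121 of 256 members were called, 47.3%, beside a background of 41.9%. With library totals the shares were 39.1% and 38.7%, and with the members' sum as library size 43.8% and 42.8%. Members had been chosen for a small range over these same solvent pools. Their spread in this test was therefore small by choice, and their share is not on equal terms with the background. Of the 121, 87 were higher in control QA, 34% beside 18.8% of all probes, and 34 were lower, 13.3% beside 23.2%. With the summed counts of the members as library size, 55 were higher and 57 lower. That sum is made of the members themselves, so an even split follows in part from the scaling. The differences were small: the median size of the 121 was 1.22-fold, none reached 2-fold, and 22 of the 256 members, 8.59%, lay past 0.4 on the log2 scale, beside 23.4% of all probes. The median absolute log2 fold change was 0.16 in the members and 0.24 in the other probes of the window.

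Dapma7bEVm009578_96801, among the 6 with the lowest SD over the 143 treated libraries, was the member with the lowest adjusted p here. The 12 control QA libraries ran from 1220.3 through 1365 to 1551 CPM and the 36 solvent pools from 808 through 1032 to 1254 CPM. The ranges overlapped slightly, and the log2 difference was 0.46 ± 0.041 (SE), adjusted p = 1.37e-12 by edgeR. The fit had no term for exposure, so its SE and p measure the spread between single libraries. Dapma7bEVm003600_97583 was lower, at 194 through 259 to 292 CPM in control QA and 254 through 369 to 475 CPM in the solvent pools. Its log2 difference was -0.55 ± 0.073, adjusted p = 1.18e-07 by edgeR.

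Some members share their gene identifier with another probe. For 52 members the identifier had at least 1 other probe, giving 57 pairs, and 207 members had none. In 6 pairs both probes were members. In the other 51 the second probe was not in the list: 25 lay outside the level window, 20 of them under 10 CPM, and 26 lay inside it but missed another limit. Of these 26, 22 missed the limit on 2-tert-butyl-4-methoxyphenol, 20 that on the solvent range, 7 that on fipronil amide and 4 that on cis-nonachlordane. The limit on 2-tert-butyl-4-methoxyphenol was missed by 84.6% of the 26 and 79.9% of the 1094 other probes of the window. The shares were 76.9% and 70.1% for the solvent range, 26.9% and 39.4% for fipronil amide, and 15.4% and 22.9% for cis-nonachlordane. Of the 32 pairs with both probes inside the window, 18.8% were pairs of 2 members. That share counts pairs, so it is not set beside the 19.1% of the 1353 probes that are members.

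On the CPM of the choice, the level of probes of 1 identifier differed by a median of 3.57-fold over the 37 pairs with both probes at 10 CPM or more, and by up to 47.0-fold. Among pairs of 2 members, Dapma7bEVm010869_96964 and Dapma7bEVm010869_97505 had solvent means of 2528 and 1742 CPM. Dapma7bEVm014960_97172 and Dapma7bEVm014960_97682 stood at 52.6 and 2010.1 CPM. In Dapma7bEVm014940 both probes are members, at 2048 and 1118 CPM, and both fell at 2.113 µM of Metribuzin-DA. The second, Dapma7bEVm014940_97891, read 722, 683 and 686 CPM there against 966 through 1082 to 1241 CPM in the solvent pools, with log2 fold change -0.67 ± 0.20 (SE) and adjusted p = 0.0301 by edgeR.

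The pair whose second probe lay farthest past a limit of the choice, as a ratio to that limit, was Dapma7bEVm010330. Its member, Dapma7bEVm010330_97762, had a solvent mean of 1452 CPM, and log2 ratios of 0.08, -0.13 and -0.15 in the 3 choosing comparisons by library totals. The other probe, Dapma7bEVm010330_97413, with 176 CPM, had -2.97, -1.45 and -2.49 and a solvent range of 2.72. The member was called at 0.067 µM of Metribuzin-DA and of 2-tert-butyl-4-methoxyphenol and at 21.1 µM of 3,4-dichlorophenyl isocyanate. In each case replicate C was the highest pool on TMM-scaled CPM. The member's 3 pools read 1622, 2028 and 3819 CPM, 1889, 1813 and 4050 CPM, and 2070.1, 1253 and 5978 CPM in that order.

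The other probe of the identifier was high in the same pools. It read 178, 1745 and 4456 CPM, 173, 1126 and 4969 CPM, and 150.1, 71.0 and 41434 CPM in letters A, B and C of those 3 groups. The solvent pools of the first 2 ran from 98.6 through 237 to 455 CPM, and those of the third from 52.9 through 61.9 to 75.5 CPM. Replicate C of the third group is the library held by a single probe, and without it the call of the member at 21.1 µM was lost. In that library the member had 101 of 118094 counts, and the TMM factor was 0.1431. Its 5978 CPM there thus rests on that scaling, and with library totals 0 members were called at 21.1 µM. Other non-members whose partner is in the list were Dapma7bEVm018449_97092, with a log2 ratio of -1.50 in 2-tert-butyl-4-methoxyphenol against 0.39 for the member, Dapma7bEVm009851_96129, with -1.48 against 0.15, and Dapma7bEVm000213_97134, with -1.35 against 0.06.

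Used as a ruler, the summed counts of the list scaled libraries nearly as TMM did. The log2 difference between the 2 scalings, relative to the mean of the solvent pools, had a median size of 0.036 over the 215 treated libraries of the 9 chemicals outside the choice, and 14 of them lay past 0.1. Against library totals alone the median size was 0.046, with 43 libraries past 0.1 and 11 past 0.2. The 36 solvent pools lay between -0.072 and 0.086 against TMM. In the library held by a single probe the difference was -0.78 against TMM and -3.59 against the total. In the other 214 it ran from -0.20 to 0.16 against TMM. In all 12 control QA libraries the members lay above, from 0.047 to 0.15.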

How the data were processed

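Per the labels' protocols, whole Daphnia magna were pooled by concentration within each of 3 plates and read by TempO-Seq. The count table deposited by the authors holds unscaled whole numbers, a probe per line. Of their deposited log2 tables, 1 per chemical, the concentration line alone was read. Bcl2fastq was used per the submitters' processing notes. Aligner, settings and build: not given in the sources used here. Columns matched to no sample numbered 0, and no 2 libraries held identical counts.

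The rule for the members was applied to the counts divided by library totals. The members and lists were chosen with earlier results of these data known. Each chemical and its 6 solvent pools entered 1 fit by the quasi-likelihood test of edgeR 4.0.16 under R 4.3.3. Low counts were removed by filterByExpr, libraries were scaled by TMM, and p-values were adjusted over all probes within each test. Control QA was fitted against all 36 solvent pools, without a term for exposure. The script was tested on simulated counts. SDs use log2 CPM with a prior count of 2. Other choices were DESeq2 1.42.0, RLE scaling, library totals, the members' summed counts as library size, no filter, either set of solvent pools alone, the replicate letter as a block, and leaving out letters. Python 3.11.15, pandas 2.3.3, numpy 2.4.6 and matplotlib 3.10.9 were used.

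Named probes were the 8 most abundant members, the 6 with the lowest and 6 with the highest SD, the 8 called most often outside the choice, those nearest each limit, and members whose identifier has another probe, in pairs; of these the text gives the ones a result turns on. Other called members were taken after their values were seen: at most 2 that rose and 2 that fell in a test. Nothing in the labels says that pools of 1 concentration came from separate cultures, so p-values measure the spread between these pools. Lists of reference genes by name could not be used, as no names were given.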

Additional observations from a re-analysis of the deposited data

Results flagged for a closer look

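In 168 groups of 6 solvent pools (the share of the list and the CPM of the named members, per exposure), 8 held a pool far from the other 5, which is 4.76%; chance gives about 1 in 20. In the exposure of 1(2H)-phthalazinone and gabapentin, Dapma7bEVm001683_96728 reached 2970 CPM in 1 pool and 2390 CPM in the next, and Dapma7bEVm023023_97411 was at 289 CPM in 1 pool and 376 CPM in the next. In that of Metolachlor OA and 3,4-dichlorophenyl isocyanate, Dapma7bEVm009908_97240 reached 3090 CPM against 2460 CPM. In that of fexofenadine and cis-nonachlordane the same probe reached 2410 CPM against 2060 CPM, Dapma7bEVm015772_96652 reached 189 CPM against 157 CPM, and Dapma7bEVm010330_97762 reached 2140 CPM against 1460 CPM. Dapma7bEVm009578_96801 reached 1160 CPM against 1070 CPM in the exposure of hydrochlorothiazide and 4-chlorophenyl methyl sulfoxide. Dapma7bEVm008302_96056 reached 471 CPM against 375 CPM in that of Metribuzin-DA and 2-tert-butyl-4-methoxyphenol.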

How the results depend on the processing

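Counts of member calls moved with many choices, and the cause was not tested. The share of all probes called moved with them. In the test of all concentrations of Metribuzin-DA it went from 4.64% to 17.6% with DESeq2. At 2.113 µM of Metribuzin-DA it went from 11.1% to 0.202% with XtraC pools alone. The counts below stand without that share, so they do not set the members apart from other probes. In the 48 tests of the first 3 exposures the 7 calls became 14 with DESeq2, 0 with library totals, 11 with the members' sum as library size, 4 with no filter, 0 with CON pools alone, 1 with XtraC pools alone, 11 without the library held by a single probe, and 0 to 7 without 1 letter. At the 19 other concentrations of the choosing chemicals the 23 became 14 with library totals, 8 with no filter, 0 with either set of solvent pools, 0 to 54 without 1 letter, and 6 when 2-tert-butyl-4-methoxyphenol was left out. For the partner chemicals the 36 became 20 with no filter, 3 with CON pools, 0 with XtraC pools, 2 to 36 without 1 letter, and 6 without 2.113 µM of Metribuzin-DA; the last choice in each of these 2 groups was made after seeing the data. Over all concentrations the 9 became 47 with DESeq2, 0 and 1 with CON and XtraC pools alone, 14 without the single-probe library and 0 to 13 without 1 letter. The 2 trend calls became 9 with DESeq2, 0 with library totals, 6 without that library and 0 to 2 without 1 letter. The 121 calls of control QA ran from 100 to 121 over all alternatives.

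The list held 152 probes with a solvent range limit of 0.4, and 162 to 195 of the 259 members remained without 1 letter, in lists of 186 to 237. With TMM-scaled CPM it held 312, of which 216 were members. The median SD of 0.311 ran from 0.242 to 0.331 without 1 letter and was 0.44 with library totals. Of 246 alternatives for 24 calls of the named members, 159 kept the call, 87 lost it and 0 changed sign. With the letter as a replicate block, member calls rose to 47 in the first 48 tests, 44 at the 19 other concentrations and 60 for the partners, and were 11 over all concentrations and 2 in the trend test. That letters name plates is an inference. Libraries of the same letter deviated together by a mean correlation of 0.007 in Metribuzin-DA to 0.295 in Metolachlor OA, above that of other letters in all 12 chemicals, and 11 to 23 of 29 or 30 libraries per chemical were closest to their own letter, a hint from the data and not the design. Single same-letter pairs went down to -0.683, so pairing is not taken as shown. Without the single-probe library the members' median SD was 0.45 at 10 to 30 CPM, beside 0.36 from counting error. At 30 to 100 CPM it was 0.31 beside 0.22. Whether depth limits these members was not tested.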
